A study of Mus musculus with 18 samples.

Results

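The genes described here are 8 Toll-like receptors of the mouse (*Tlr1*, *Tlr2*, *Tlr4*, *Tlr6*, *Tlr7*, *Tlr8*, *Tlr9* and *Tlr13*) together with *Cd14* and *Myd88*. They are 10 of the 34896 genes in the expression table and were taken by symbol, with earlier results of these data already known. The study addressed how GFI1, a repressor of transcription, works with CHD4, the ATPase of the NuRD chromatin remodeling complex, in granulocyte-monocyte progenitors (GMPs) and on the way from these cells to neutrophils. All cells came from bone marrow of C57BL/6 mice aged 6 to 12 weeks. GMPs were sorted as lineage-negative, c-KIT+, SCA1-, CD16/32+ and CD34+ cells. Preneutrophils (preNeu) and mature neutrophils (matNeu) were gated from Mac-1+ Gr-1+ cells, the first as c-KIT high and CXCR4 intermediate, the second as Siglec- and CXCR2+. For RNA-seq there were 3 libraries of each cell type, all WT. CHD4 ChIP-seq covered WT GMPs and Gfi1-/- GMPs with 1 library each, and H3K4me2 ChIP-seq had 1 library of each WT cell type. The Gfi1-/- mice lack the gene in all of their cells, so that their GMPs developed without GFI1, and no RNA-seq of these GMPs was analysed here. ATAC-seq peaks of WT preNeu and of WT matNeu cells were given by the same list line for line, which counts here as 1 list. Marrow from several bones was pooled, and nothing in the labels says that the 3 RNA-seq libraries of a cell type came from separate mice, so that the p-values below measure the spread between these libraries, which may be technical.

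Samples were grouped by their titles, because the cell type entry of the labels differed from the title for 13 of 18 samples, the 9 RNA-seq libraries among them. Marker genes followed the titles. The summed TPM (a transcript level divided by transcript length and scaled to the same total in every library) of 6 GMP markers was 45270 to 47150 in GMP, 8320 to 9360 in preNeu and 9.32 to 32.7 in matNeu libraries. That of 5 preNeu markers was 138500 to 160500 in preNeu libraries and at most 4155 elsewhere, and that of 6 matNeu markers was 29410 to 34380 in matNeu libraries and at most 861 elsewhere. TPM keeps no read depth, so the depth behind each value is unknown. The Gfi1-/- genotype rests on the title of its sample, since a peak list holds no check of it.

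Toll-like receptors bind conserved microbial molecules and signal through their TIR domains, mostly by way of the adaptor MYD88, to kinases that activate NF-κB and MAP kinases. TLR1, TLR2, TLR4 and TLR6 sit at the cell surface, where TLR2 pairs with TLR1 or TLR6 to bind bacterial lipopeptides and TLR4 binds lipopolysaccharide that CD14 hands over. TLR7, TLR8, TLR9 and TLR13 sit in endosomes and bind nucleic acids. TLR13 recognises bacterial 23S ribosomal RNA and is present in mice but not in humans. Neutrophils use these receptors to respond at sites of infection.

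The 7 receptor genes that had a CHD4 peak in WT GMPs are shown by the sequence under their strongest peak, because CHD4 occupation at these sites is what the ChIP-seq results turn on. Each line is the plus strand of GRCm38, 5′ to 3′, over the 200 bases centred on the summit. For *Tlr8*, whose summit lies at the first exon, only the 61 bases outside exons are shown. Capitals mark exact matches on either strand to the cores searched, AAATCA for GFI1, GAGGAAGT for SPI1, TTGCNNAA for C/EBP factors and AANNGAAA for IRF factors. The first 4 sites were also occupied in Gfi1-/- GMPs, and the last 3, shown for contrast, were not.
Tlr13 (chrX:106134969-106135168): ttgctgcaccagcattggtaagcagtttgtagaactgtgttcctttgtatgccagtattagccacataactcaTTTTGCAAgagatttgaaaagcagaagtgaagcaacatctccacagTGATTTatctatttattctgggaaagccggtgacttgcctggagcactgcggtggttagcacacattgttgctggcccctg
Tlr7 (chrX:167318869-167319068): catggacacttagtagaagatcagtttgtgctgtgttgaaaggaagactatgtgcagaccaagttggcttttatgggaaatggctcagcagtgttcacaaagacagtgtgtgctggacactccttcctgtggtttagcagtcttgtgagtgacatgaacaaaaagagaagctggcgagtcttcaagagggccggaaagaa
Tlr8 (chrX:167264330-167264390): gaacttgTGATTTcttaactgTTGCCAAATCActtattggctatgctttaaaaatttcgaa
Tlr4 (chr4:66843332-66843531): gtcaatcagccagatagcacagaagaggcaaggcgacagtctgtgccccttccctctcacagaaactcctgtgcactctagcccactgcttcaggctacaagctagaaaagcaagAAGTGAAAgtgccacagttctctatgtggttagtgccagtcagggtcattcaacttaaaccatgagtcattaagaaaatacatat
Tlr1 (chr5:64923094-64923293): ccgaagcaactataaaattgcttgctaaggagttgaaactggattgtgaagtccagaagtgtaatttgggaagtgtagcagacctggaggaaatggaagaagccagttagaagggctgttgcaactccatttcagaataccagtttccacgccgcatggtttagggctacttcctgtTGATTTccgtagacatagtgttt
Tlr2 (chr3:83839526-83839725): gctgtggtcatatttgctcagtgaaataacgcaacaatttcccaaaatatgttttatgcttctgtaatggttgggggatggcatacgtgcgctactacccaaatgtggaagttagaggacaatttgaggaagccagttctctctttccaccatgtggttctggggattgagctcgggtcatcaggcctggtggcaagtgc
Tlr6 (chr5:64960901-64961100): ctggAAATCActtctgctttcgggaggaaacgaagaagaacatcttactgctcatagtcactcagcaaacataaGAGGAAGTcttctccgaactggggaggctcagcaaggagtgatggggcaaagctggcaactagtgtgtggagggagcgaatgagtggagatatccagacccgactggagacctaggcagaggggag

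In the printed *Tlr8* bases a C/EBP core and a GFI1 core overlap within 1 stretch, TTGCCAAATCA, and another GFI1 core lies next to it on the other strand. The full 200 bases at *Tlr8* hold 3 C/EBP and 2 GFI1 cores. The *Tlr13* window holds 1 C/EBP and 1 GFI1 core, the *Tlr6* window 1 GFI1 and 1 SPI1 core, and the *Tlr7* and *Tlr2* windows none of the 4.

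The summed level of the 8 receptors was low in GMPs and preNeu cells and high in matNeu cells, although *Tlr9*, *Tlr7* and *Tlr1* each departed from this pattern, as their values show. The receptors summed to 100.4, 125.1 and 93.8 TPM in the GMP libraries, to 70.8, 113.0 and 101.7 TPM in preNeu libraries, and to 1085, 1156 and 1060 TPM in matNeu libraries. The makeup of the sum differed as well. The endosomal receptors held 2.92 to 6.02% of it in GMPs, 14.1 to 31.5% in preNeu cells and 37.8 to 47.4% in matNeu cells, and the ranges of the 3 cell types did not overlap. *Tlr13* alone held 29.5 to 40.4% of the sum in matNeu cells. These are bulk levels, in which fewer expressing cells and less RNA per cell cannot be told apart.

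**Figure D1:**
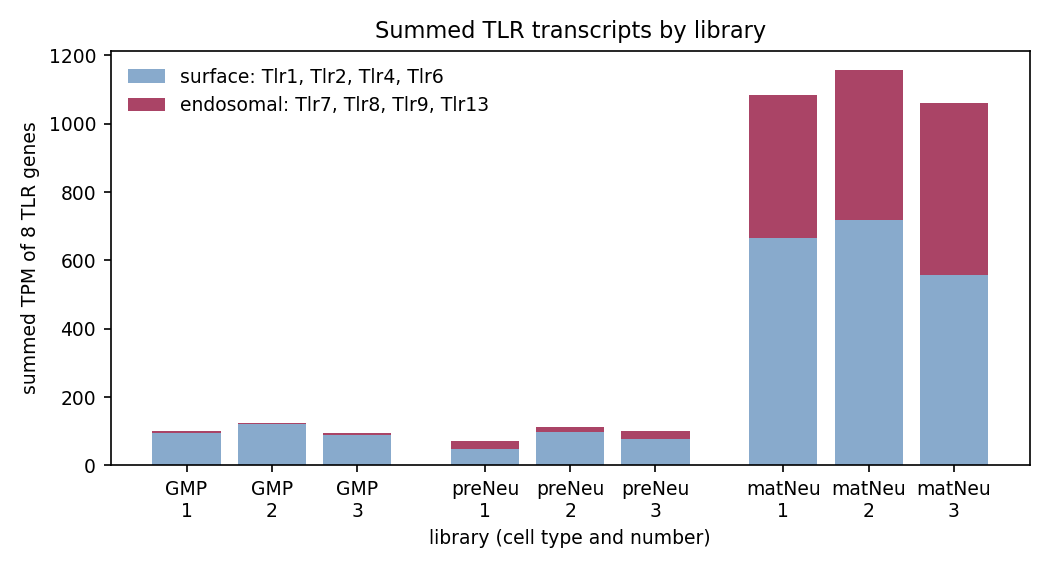
Summed TPM of the 8 Toll-like receptor genes (vertical axis) in each of the 9 RNA-seq libraries, split into surface receptors (*Tlr1*, *Tlr2*, *Tlr4*, *Tlr6*) and endosomal receptors (*Tlr7*, *Tlr8*, *Tlr9*, *Tlr13*). The matNeu libraries reach 1060 to 1156 TPM and all others stay at or below 125.1 TPM, with the endosomal part near the baseline in GMPs.

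Of the 10 genes, 9 reached 1 TPM in at least 3 libraries, each of them in at least 7 of the 9 libraries, and entered the limma fit on log2(TPM + 1), with p-values adjusted over all 13061 genes tested. *Tlr9* did not and was not tested. Between matNeu cells and GMPs 8 of the 9 were called higher at an adjusted p under 0.05 and none lower, where 22.8% of all genes tested were called higher and 54.1% lower. Between matNeu and preNeu cells 8 were called higher (22.9% of all genes), and between preNeu cells and GMPs 4 were called higher and 1 lower (14.7% and 44.3%). The median change of the 9 genes on the log2 scale was 3.14 for matNeu cells against GMPs, beside −0.92 over all genes tested, 3.58 beside −0.32 for matNeu against preNeu cells, and 0.47 beside −0.52 for preNeu cells against GMPs. The 3 contrasts share libraries and are not independent. TPM has a fixed total in each library, and with median-of-ratios size factors the median over all genes shifted up by 0.72, 0.25 and 0.43 for matNeu against GMP, matNeu against preNeu and preNeu against GMP cells. Under that scaling 34.4%, 30.2% and 23.2% of all genes were called higher, and 9, 9 and 5 of the 9 genes.

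**Figure D2:**
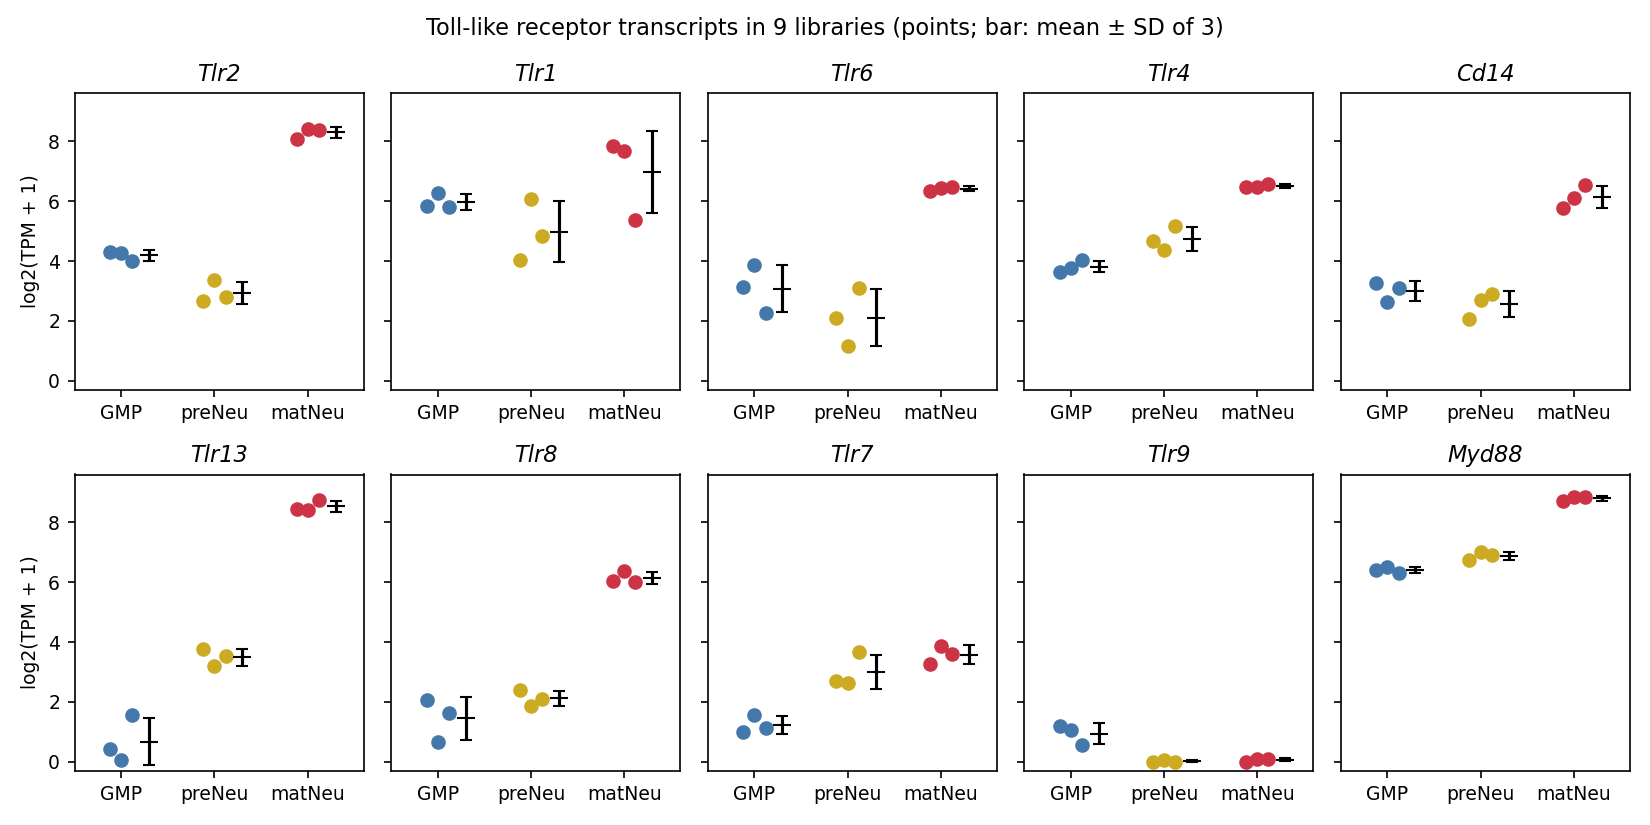
Level of each of the 10 genes as log2(TPM + 1) in 9 libraries. Coloured points are libraries and black bars the mean ± SD of the 3 libraries of a cell type. The matNeu and GMP points of *Tlr1* overlap, and *Tlr9* lies at the bottom.

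*Tlr2*, the shared partner of the lipopeptide receptors (chr3:83836272-83841767, minus strand), had 18.9, 18.1 and 14.8 TPM in GMPs, 5.32, 9.23 and 5.94 TPM in preNeu cells, and 270.0, 343.2 and 332.4 TPM in matNeu cells. The 3 cell types did not overlap, and preNeu cells were lowest. *Tlr2* was the only one of the 9 genes called lower in preNeu cells than in GMPs, by a log2 change of −1.25 ± 0.21 (SE, adjusted p = 0.000433), and from preNeu to matNeu cells it rose by 5.36 ± 0.21 (6.48e-09). Against GMPs the mean in matNeu cells was 18.2 times higher (log2 change 4.11, adjusted p = 1.72e-08).

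*Tlr1*, which pairs with TLR2 for triacylated lipopeptides (chr5:64924679-64933563, minus strand), was the most abundant receptor in GMPs. It had 56.4, 77.3 and 54.4 TPM there, 15.4, 66.8 and 27.6 TPM in preNeu cells, and 228.3, 202.7 and 40.7 TPM in matNeu cells. The libraries of every pair of cell types overlapped, and the third matNeu library lay below all 3 GMP libraries. The change from preNeu to matNeu cells was 1.98 ± 0.63 on the log2 scale and passed the test (adjusted p = 0.0184). That call was lost without the first or second matNeu library (0.0734 and 0.0741), without the first or the third preNeu library (0.0807 and 0.0553), with the 2 cell types fitted alone (0.0639) and without the filter on low values (0.0549). Against GMPs the change was 0.99 ± 0.63 (95% interval −0.41 to 2.39, adjusted p = 0.175). Without the third matNeu library it was 1.78 and passed (0.00641), as it did with median-of-ratios scaling (1.86, 0.0226) and quantile normalization (1.54, 0.0344).

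*Tlr6*, the other partner of TLR2 and the neighbour of *Tlr1* (chr5:64952031-64960097, minus strand), had 7.75, 13.4 and 3.78 TPM in GMPs, 3.24, 1.24 and 7.49 TPM in preNeu cells, and 80.1, 85.5 and 88.6 TPM in matNeu cells. The matNeu libraries lay close together and above all the rest, while GMP and preNeu libraries overlapped. *Tlr6* rose by 4.31 ± 0.48 from preNeu to matNeu cells (adjusted p = 1.61e-05). Between GMP and preNeu cells the log2 change was −0.97 ± 0.48 and missed the test (0.107). It was called lower without the third GMP library (−1.38, 0.0349) or without the third preNeu library (−1.45, 0.0196). *Tlr1* and *Tlr6* transcripts share 603 words of 31 bases, 19.5% of those of *Tlr1* and 16.3% of those of *Tlr6*, and no other pair of the 10 genes shares any. Reads from the shared stretch can fall to either gene, and how they were split is not given in the sources used here. The ratio of *Tlr2* to *Tlr6* was 3.37, 4.02 and 3.75 in the matNeu libraries, whereas that of *Tlr2* to *Tlr1* was 1.18, 1.69 and 8.16.

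*Tlr4*, the receptor for lipopolysaccharide (chr4:66827584-66930284, plus strand), climbed in both steps. It had 11.5, 12.7 and 15.2 TPM in GMPs, 24.5, 19.7 and 35.1 TPM in preNeu cells, and 87.5, 87.4 and 95.4 TPM in matNeu cells, with no overlap between cell types. The log2 change was 0.93 ± 0.21 from GMP to preNeu cells (adjusted p = 0.00308) and 1.77 ± 0.21 from preNeu to matNeu cells (2.66e-05).

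*Cd14*, the co-receptor that delivers lipopolysaccharide to TLR4 (chr18:36725067-36726798, minus strand), did not climb in the first step. It had 8.71, 5.23 and 7.49 TPM in GMPs, 3.19, 5.54 and 6.50 TPM in preNeu cells, and 54.1, 67.8 and 92.0 TPM in matNeu cells. GMP and preNeu libraries overlapped (log2 change −0.44 ± 0.29, adjusted p = 0.221, with the sign turned under quantile normalization), and matNeu cells were higher than preNeu cells by 3.58 ± 0.29 (1.47e-06). The mean ratio of matNeu to preNeu cells was 14.0 for *Cd14* and 3.41 for *Tlr4*.

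*Tlr13* (chrX:106143204-106160493, plus strand) had the largest change between matNeu cells and GMPs among the 9 genes, 7.86 ± 0.35 on the log2(TPM + 1) scale (adjusted p = 6.62e-09). GMP libraries held 0.327, 0.0318 and 1.95 TPM, preNeu libraries 12.5, 8.12 and 10.7 TPM, and matNeu libraries 345.5, 340.9 and 427.8 TPM. The cell types did not overlap. From GMP to preNeu cells *Tlr13* rose by 2.82 ± 0.35 (adjusted p = 5.52e-05) and from preNeu to matNeu cells by 5.04 ± 0.35 (3.81e-07). It went from the lowest mean of the 10 genes in GMPs to the second highest in matNeu cells.

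*Tlr8* (chrX:167242696-167264329, minus strand), a sensor of RNA breakdown products, stayed low until the last step. It had 3.17, 0.571 and 2.07 TPM in GMPs, 4.24, 2.66 and 3.27 TPM in preNeu cells, and 65.3, 82.5 and 63.9 TPM in matNeu cells. Only the matNeu libraries stood apart, with a rise of 4.03 ± 0.34 over preNeu cells (adjusted p = 2.00e-06). Between GMP and preNeu cells the change of 0.68 ± 0.34 missed the test (0.115), and it passed with median-of-ratios scaling (0.97, 0.0318), quantile normalization (1.12, 0.0111) or without the first GMP library (0.98, 0.0314).

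*Tlr7*, the receptor for single-stranded RNA next to *Tlr8* (chrX:167304929-167330558, minus strand), rose in the first step instead. It had 1.01, 1.96 and 1.17 TPM in GMPs, 5.55, 5.15 and 11.7 TPM in preNeu cells, and 8.53, 13.6 and 11.2 TPM in matNeu cells. The change from GMP to preNeu cells was 1.77 ± 0.33 (adjusted p = 0.000988). PreNeu and matNeu libraries overlapped, with a change of 0.58 ± 0.33 (95% interval −0.16 to 1.32, adjusted p = 0.156), which passed without the third preNeu library (0.91, 0.0267), with median-of-ratios scaling (0.92, 0.0282) and with quantile normalization (1.23, 0.0051).

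*Tlr9*, the receptor for unmethylated CpG DNA (chr9:106222598-106226883, plus strand), was the only member whose highest levels were in GMPs. GMP libraries held 1.31, 1.09 and 0.459 TPM. The first and the third preNeu libraries and the first matNeu library were listed at 0, and the others held 0.0359 TPM (preNeu), 0.0730 TPM and 0.0549 TPM (matNeu). Without the filter on low values limma called it lower in preNeu cells (−0.92, adjusted p = 0.00213) and in matNeu cells (−0.88, 0.00155) than in GMPs. At such levels the value of a single read is not known from TPM.

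*Myd88*, the adaptor shared by these receptors (chr9:119335934-119341411, minus strand), had the highest mean level of the 10 genes in every cell type. Its levels were 84.3, 89.7 and 78.5 TPM in GMPs, 106.0, 127.0 and 119.3 TPM in preNeu cells, and 416.1, 456.3 and 462.0 TPM in matNeu cells, without overlap. The rise was 0.47 ± 0.12 in the first step (adjusted p = 0.00473) and 1.91 ± 0.12 in the second (1.40e-07).

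By mean TPM (± SD, n = 3) the order in matNeu cells was *Myd88* (445 ± 25.1), *Tlr13* (371 ± 48.9), *Tlr2* (315 ± 39.5), *Tlr1* (157 ± 102), *Tlr4* (90.1 ± 4.62), *Tlr6* (84.7 ± 4.29), *Cd14* (71.3 ± 19.2), *Tlr8* (70.5 ± 10.4), *Tlr7* (11.1 ± 2.55) and *Tlr9*. Neighbours in this order had overlapping libraries except *Tlr2* and *Tlr1*, *Tlr8* and *Tlr7*, and *Tlr7* and *Tlr9*. In GMPs the receptors ran from *Tlr1* (62.7 ± 12.7) over *Tlr2* (17.3 ± 2.16) and *Tlr4* (13.1 ± 1.90) down to *Tlr13* (0.768 ± 1.03), and *Tlr7*, *Tlr8*, *Tlr9* and *Tlr13* were the 4 lowest. In preNeu cells *Tlr1* (36.6 ± 26.9) and *Tlr4* (26.4 ± 7.86) overlapped at the top of the receptors, with *Tlr13* (10.4 ± 2.19) and *Tlr7* (7.46 ± 3.66) next.

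**Figure D3:**
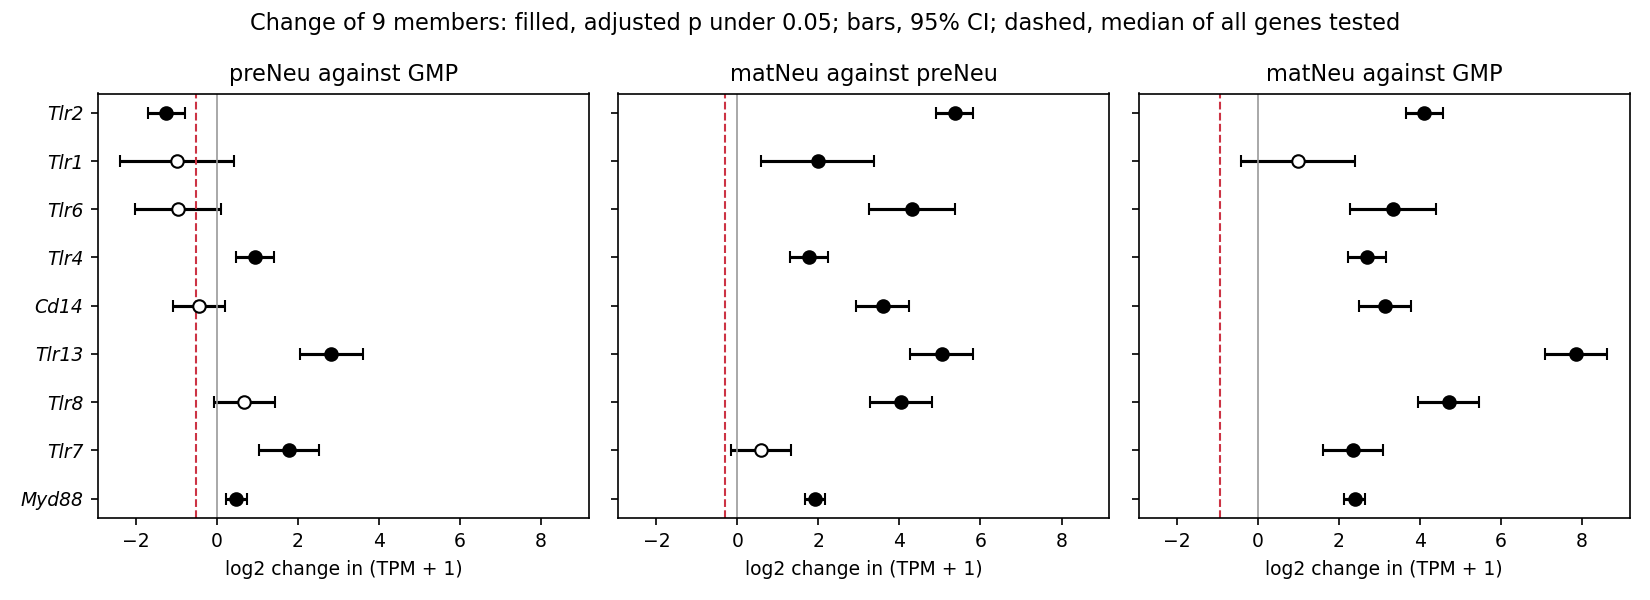
Change of the 9 tested genes in log2(TPM + 1) for preNeu against GMP, matNeu against preNeu and matNeu against GMP cells. Bars are 95% intervals, filled points have an adjusted p under 0.05, and the dashed line is the median of all genes tested at −0.52, −0.32 and −0.92. *Tlr2*, *Tlr4*, *Tlr13* and *Myd88* are filled in all 3 panels, *Tlr6*, *Tlr8* and *Cd14* in the last 2, *Tlr7* in the first and last, and *Tlr1* in the middle one.

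The timing of the rise was compared by the difference between the second step (matNeu against preNeu) and the first (preNeu against GMP), a contrast added after the data were seen. It was called above 0 for 7 of the 9 genes, where 26.4% of all genes tested were. The difference was 6.61 ± 0.36 on the log2 scale for *Tlr2*, 5.28 ± 0.83 for *Tlr6*, 4.02 ± 0.51 for *Cd14*, 3.36 ± 0.59 for *Tlr8* and 1.44 ± 0.20 for *Myd88*, with adjusted p-values from 2.38e-07 to 0.000977. It was 2.21 ± 0.60 for *Tlr13* (adjusted p = 0.0114) and 2.97 ± 1.10 for *Tlr1* (0.0455). The *Tlr13* call was lost with a pseudocount of 0.1 (0.74, 0.689) and without the second preNeu library (0.0547). The *Tlr1* call was lost without any 1 of the GMP libraries, the first or the second matNeu library, or the first or the third preNeu library (0.0639 to 0.21), and in 5 of the other alternatives (0.0588 to 0.111). For *Tlr4* the difference was 0.84 ± 0.36 (0.0807, called without the third preNeu library at 1.27, 0.0139), and for *Tlr7* it was −1.19 ± 0.58 (95% interval −2.47 to 0.09, adjusted p = 0.113).

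Markers of other cells were read beside these levels, since monocytes, dendritic cells and B cells also use Toll-like receptors. The summed TPM of 10 monocyte and macrophage markers was 1192 to 1456 in GMPs, 265 to 403 in preNeu cells and 355 to 498 in matNeu cells, where 7 of the 10 were at 1 TPM or more in all 3 libraries and *Ccr2* was below 1 TPM. Most of the matNeu sum was *Csf1r*, with 308.6, 252.8 and 349.6 TPM, and 4 of the 10 were called higher and 4 lower in matNeu cells than in GMPs. The sum of 6 dendritic cell markers was 1.69 to 1.82, 2.48 to 3.03 and 12.5 to 16.9 TPM in the same order, with 2 of the 6 at 1 TPM or more in all matNeu libraries, *Zbtb46*, *Xcr1* and *Itgae* below 1 TPM there, and *Cd209a* at 0 in GMPs. The sum of 6 B cell markers was 78.9 to 94.5, 26.5 to 47.2 and 62.9 to 137 TPM, with all 6 at 1 TPM or more in matNeu libraries, 5 of them called higher there than in GMPs, and *Pax5* and *Ebf1* at 0 in GMPs. The sum of T and NK cell markers was at most 613 TPM and highest in GMPs, where nearly all of it was *Nkg7* (457.2, 549.5 and 609.7 TPM), which fell in matNeu cells. The T cell marker *Cd3d*, at 3.002, 2.336 and 3.288 TPM in GMPs and 9.33, 14.1 and 6.57 TPM in matNeu cells, was called higher (log2 change 1.45, adjusted p = 0.00336). *Cd3e* and *Ncr1* were at 0 in GMPs. The sum of eosinophil and basophil markers was at most 1446 TPM and highest in GMPs, and erythroid markers summed to at most 10.4 TPM anywhere. From GMPs to matNeu cells some markers of other cells thus rose with the receptors. They were 4 of 10 monocyte and macrophage markers, with 4 lower, and 5 of 6 B cell markers, with *Cd79b* lower (−1.34). The others were *Cd3d* and the 2 dendritic cell markers that could be tested, *Siglech* and *Cd209a*. Both dendritic cell markers reached 1 TPM in matNeu libraries alone. They passed the filter only through the cell type where they were high, so no weight is given to their calls. The part of any of these cells in the receptor levels was not tested.

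CHD4 occupied 9 of the 10 loci in WT GMPs, in which the 4 endosomal receptors had at most 3.17 TPM. Of 35790 CHD4 peaks 48 lay in a member gene or within 10 kb of it, and none was counted for more than 1 member. A CHD4 peak lay as near to 32.4% of 21938 protein-coding genes. *Tlr13* had 12 peaks, *Tlr7* 10, *Tlr2* 7, *Tlr4* and *Cd14* 5 each, *Tlr6* and *Tlr8* 3 each, *Tlr1* 2, *Myd88* 1 and *Tlr9* 0. The 5 members with at least 5 peaks compare with 8.34% of all coding genes. The single peak near *Myd88* was weak (5.25-fold over background) and lay in an intron of *Slc22a14*, nearest to the start of *Acaa1a*. *Tlr4* is long, 102.7 kb, so that its window is wider than those of the others.

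The fold enrichment of the 48 peaks ran from 4.30 to 33.5 with a median of 11.3, beside 7.72 over all WT peaks. Their summits lay at promoters in 15 cases, in introns in 20, outside genes in 12 and in a 5′ UTR in 1, and 4 were nearer to the start of another coding gene. The strongest peaks were at *Tlr13* 8.14 kb before the start (33.5), in the *Tlr7* gene body 11.6 kb after the start (28.1), and at *Tlr13* 3.60 kb before the start (27.3). A peak covered the transcription start site of 7 members, with folds of 25.3 at *Cd14*, 23.9 at *Tlr8*, 15.3 at *Tlr6*, 15.1 at *Tlr4*, 14.9 at *Tlr13*, 11.9 at *Tlr2* and 11.5 at *Tlr7*. *Tlr1* and *Tlr6* differed from each other here: the strongest *Tlr1* peak (20.5) lay 10.4 kb downstream of the start, past the end of the gene, and the 2 strongest of *Tlr6* within 1 kb of the start.

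In Gfi1-/- GMPs 13 CHD4 peaks lay near 5 of the members, *Tlr13* (5), *Tlr7* (3), *Cd14* (2), *Tlr8* (2) and *Tlr4* (1), and 10.2% of coding genes had one. All 13 overlapped a WT peak. Conversely, 10 of the 48 WT peaks were overlapped by a Gfi1-/- peak, beside 18.5% of all WT peaks. The 3 X-linked receptors held 7 of these 10, and *Tlr1*, *Tlr2*, *Tlr6* and *Myd88*, with 13 WT peaks together, held none.

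The overlap followed the strength of the WT peak. None of the 23 member peaks under 10-fold was overlapped (2.57% of all WT peaks in that range), 3 of the 16 from 10- to 20-fold were (28.9%), and 7 of the 9 at 20-fold or more were (90.5%). The 2 strong peaks without a counterpart were those of *Tlr1* at 10.4 kb (20.5) and of *Cd14* 1.03 kb before the start (23.2). At the shared sites the fold enrichment went from 33.5 in WT to 10.3 in Gfi1-/- GMPs at *Tlr13* 8.14 kb before the start, from 23.9 to 9.43 at the *Tlr8* start, from 25.3 to 6.31 at the *Cd14* start, from 28.1 to 6.38 in the *Tlr7* gene and from 21.4 to 6.46 in an intron of *Tlr4* 15.8 kb after the start. Each genotype had 1 library, so that no difference between them has a replicate check. The Gfi1-/- list was shorter (7316 peaks), its depth is unknown, and a shallower or less enriched library cannot be told apart from lower occupation. With the WT list cut to the same length by q-value, 16 WT peaks remained near the members and 8 of them (50%) were overlapped. The share over all peaks of the cut list is not given here. Overlap was more frequent among stronger WT peaks, so the 50% cannot be read against the 18.5% of the full list.

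H3K4me2, a mark of promoters and enhancers, had at most 1 peak at each X-linked receptor gene in GMPs and more or wider ones in preNeu and matNeu cells. *Tlr7* and *Tlr8* had no H3K4me2 peak within 10 kb in GMPs and had peaks in both later cell types, a pattern of 2.75% of coding genes. *Tlr13* had in GMPs a single peak of 218 bp and 2.70-fold, 7.73 kb before the start. In preNeu cells a peak of 9544 bp covered the *Tlr13* start and first part of the gene (4.45-fold), and in matNeu cells one of 10962 bp (5.52-fold). The share of the gene and its 10 kb flanks under peaks went from 0.585% in GMPs to 43.6% in preNeu and 47.6% in matNeu cells at *Tlr13*, from 0 to 20.6% and 11.8% at *Tlr7*, and from 0 to 7.36% and 12.2% at *Tlr8*. Part of the *Tlr8* share came from a peak nearest to the start of *Tmsb4x*, centred 35.0 kb after the *Tlr8* start in preNeu and 31.2 kb in matNeu cells. At *Tlr13* and *Tlr8* the mark thus covered the start in preNeu cells, in which the transcripts were at 8.12 to 12.5 and 2.66 to 4.24 TPM.

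At the other loci H3K4me2 was already listed in GMPs. The peak over the start had folds of 3.48, 8.25 and 7.03 in GMP, preNeu and matNeu cells at *Tlr2*, of 2.93, 10.7 and 9.19 at *Tlr4*, of 3.27, 12.4 and 6.20 at *Tlr6*, of 4.75, 14.6 and 12.8 at *Cd14*, and of 3.92, 12.7 and 10.7 at *Myd88*. The highest fold was in preNeu cells at each of these 5 genes, although *Tlr2*, *Tlr6* and *Cd14* had their lowest mean TPM there. The same order held for the lists as a whole, with median folds of 2.89, 4.55 and 3.78, so that the order at these genes cannot be told apart from the quality of the 3 libraries. At the start of *Tlr9* the order was the opposite, with a peak of 2645 bp (2.92-fold) in GMPs and no peak at the promoter in preNeu or matNeu cells. Elsewhere at this locus it was not: a peak in the coding exon had folds of 3.06, 6.19 and 5.37 in GMP, preNeu and matNeu cells, and one 7.76 to 7.92 kb after the start had 2.49, 2.65 and 4.42.

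Counted over the 10 members, 8 had an H3K4me2 peak within 10 kb in GMPs and all 10 in preNeu and in matNeu cells (73.6%, 74.2% and 72.1% of coding genes). A peak reached the promoter, from 2 kb before to 500 bp after the start, of 7, 9 and 9 members (59.4%, 59.3% and 56.9%). The median share of the window covered was 12.5, 26.0 and 19.7%, beside 3.83, 6.43 and 4.81% over all coding genes. In GMPs most of these peaks were weak. When peaks had to reach a −log10 q-value of 5, there were 3 at 3 members in GMPs, and all 10 members had one in both later cell types. Of the 3 GMP peaks, that in the *Tlr6* window lay at the promoter of *Fam114a1*. The cut bears unequally on the lists, whose median −log10 q-values were 2.41, 6.96 and 5.06 in GMP, preNeu and matNeu cells. The share of coding genes at this cut is not given here.

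**Figure D4:**
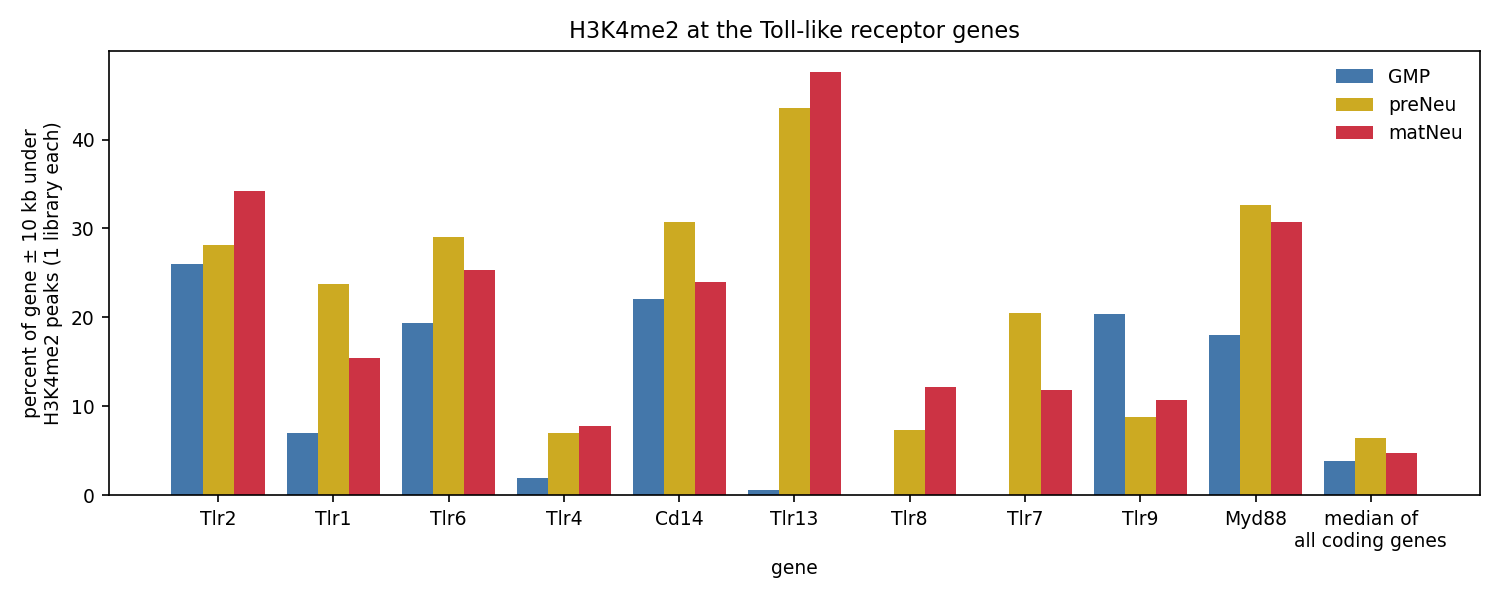
Percent of each gene with 10 kb on either side that lies under H3K4me2 peaks in GMP, preNeu and matNeu cells (1 library each), with the median of 21938 protein-coding genes at the right. *Tlr13*, *Tlr8* and *Tlr7* are at 0 to 0.585% in GMPs, and *Tlr9* is the only gene whose GMP bar is the tallest.

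Of the 48 CHD4 sites of WT GMPs near the members, 17 lay under an H3K4me2 peak of GMPs, 40 under one of preNeu cells and 40 under one of matNeu cells, beside 37.8, 59.5 and 52.5% of all WT CHD4 peaks. At *Tlr13* the strongest site alone was under the mark in GMPs, and all 12 were in preNeu and in matNeu cells. *Tlr7* had no H3K4me2 peak in GMPs, so none of its 10 sites was under the mark there, and 7 were in preNeu cells. Fewer were in matNeu cells, in which the sites 4.18 and 28.5 kb after the start were no longer under a peak. The strongest *Tlr4* site, which was also occupied in Gfi1-/- GMPs, was under no H3K4me2 peak in any of the 3 cell types. ATAC-seq peaks, which mark open chromatin, were listed within 10 kb of 5 members (52.9% of coding genes), with 3 at *Tlr2*, 2 each at *Tlr4*, *Tlr6* and *Myd88*, and 1 in the *Cd14* window at the promoter of *Tmco6*. None was listed at *Tlr13*, *Tlr7*, *Tlr8*, *Tlr1* or *Tlr9*. The list held 16307 peaks, and which of the 2 cell types it came from cannot be told.

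The 4 cores were counted at the 48 CHD4 summits of the members beside all 35728 WT summits on the numbered and sex chromosomes, with no test. In 200 bp around the summit a GFI1 core was found at 8 (12.0% of all summits), a SPI1 core at 3 (11.8%), a C/EBP core at 5 (17.3%) and an IRF core at 14 (35.1%). In 100 bp the counts were 3, 1, 3 and 13 (5.56, 7.48, 9.64 and 20.5%). In RefSeq promoters on GRCm38, from 250 bases before to 50 after the start, 7 members were matched with 9 promoters, and *Tlr4*, *Tlr7* and *Cd14* were not. A GFI1 core was found at *Tlr8* (14.0% of 32851 promoters), a SPI1 core at *Tlr1* and *Tlr9* (3.20%), a C/EBP core at *Tlr13*, *Tlr6* and *Tlr8* (10.8%) and an IRF core at *Myd88*, *Tlr1*, *Tlr2* and *Tlr6* (23.9%). A match is a run of letters and not evidence of binding.

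The rest of the pathway did not move as one in the RNA-seq data. Of 53 listed genes of the pathway 49 were tested, and between matNeu cells and GMPs 18 were called higher and 19 lower, beside 22.8% and 54.1% of all genes tested. These counts include the 4 other mouse Toll-like receptors, of which 2 were tested, 1 called higher and 1 lower. With median-of-ratios scaling, where 34.4% of all genes were called higher and 41.8% lower, the counts were 27 and 9. The counts of the single lists that follow stand beside the same shares. The genes named from each list are those of its called genes with the largest changes, with adjusted p-values of at most 0.0459. Of 5 co-receptors 1 was higher and 3 were lower. *Ly96*, whose product MD-2 completes the TLR4 receptor, rose by 2.29 on the log2 scale (5.40, 4.76 and 7.81 TPM in GMPs against 53.6, 30.2 and 21.2 TPM in matNeu cells). *Ly86* (MD-1) fell by 5.14, and *Lbp*, whose product binds lipopolysaccharide in plasma, fell by 4.32. Both were called lower under the 2 other scalings as well.

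Among 7 genes for folding and transport of the receptors 1 was higher and 4 were lower (3 and 2 with median-of-ratios scaling, where the median of the list turned from −0.70 to 0.16). *Hsp90b1*, the chaperone gp96 that folds most Toll-like receptors, fell by 5.19, from 1104, 1133 and 1034 TPM in GMPs to 24.2, 25.3 and 38.7 TPM in matNeu cells. *Cnpy4* fell by 3.47. *Slc15a3*, an endolysosomal transporter, rose by 6.60, from at most 0.119 TPM in GMPs to 101.1, 96.8 and 112.1 TPM. It had at most 0.695 TPM in preNeu cells and passed the filter only through the matNeu libraries, where it was high. *Unc93b1*, the escort of endosomal receptors, chosen after its values were seen, had 540.6, 503.5 and 460.6 TPM in GMPs, 197.1, 237.5 and 235.9 TPM in preNeu cells and 681.3, 508.5 and 705.5 TPM in matNeu cells. It fell in the first step by 1.16 and rose in the second by 1.49, and its matNeu and GMP levels overlapped (0.32, adjusted p = 0.0624, called higher with median-of-ratios scaling at 1.20).

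Of 4 tested proteases that process endosomal receptors 3 were higher and 1 lower, with *Lgmn* at 1.87, *Ctsl* at 0.63 and *Ctsb* at −0.81, of which *Ctsb* turned to 0.07 with median-of-ratios scaling. Of 4 tested TIR adaptors 2 were higher and 2 lower. *Tirap*, which bridges TLR2 and TLR4 to MYD88, rose by 2.93 (25.0, 20.1 and 16.2 TPM in GMPs against 144.1, 176.8 and 160.9 TPM in matNeu cells). *Ticam2* (TRAM), which links TLR4 to the TRIF branch, fell by 3.79 (46.4, 51.7 and 48.1 TPM against 3.43, 1.82 and 2.68 TPM). Its partner *Ticam1* (TRIF) was at −0.64 and turned to 0.16 with median-of-ratios scaling and to 0.78 with quantile normalization.

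Of 17 kinases and ubiquitin ligases 6 were higher and 7 lower, but 10 were higher and 2 lower with median-of-ratios scaling, where the median turned from −0.35 to 0.51, and with quantile normalization. *Map3k8* rose by 2.94 and *Peli1* by 2.22, whereas *Ikbke*, a kinase of the TRIF branch, fell by 4.61. Of 10 negative regulators 4 were higher and 1 lower, but 7 were higher and 1 lower under both other scalings, and the median turned from −0.03 to 0.84 with median-of-ratios scaling. *Sigirr*, an inhibitory receptor of this family, fell by 5.42, from 67.6, 65.4 and 59.8 TPM in GMPs to 0, 0.287 and 1.75 TPM in matNeu cells. *Zc3h12a* and *Tnfaip3*, which limit inflammatory transcripts and NF-κB signalling, rose by 1.79 and 1.35.

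The 4 other mouse Toll-like receptors were sparse, except *Tlr5*, the receptor for flagellin. It was at most 2.42 TPM in GMPs and preNeu cells and at 27.7, 26.7 and 33.7 TPM in matNeu cells, a rise of 4.42 over preNeu cells (adjusted p = 1.11e-06). *Tlr12* had 4.51, 3.27 and 0.676 TPM in GMPs and at most 1.55 TPM elsewhere, *Tlr3* at most 2.22 TPM, and *Tlr11* was listed at 0 in all libraries but 1 (0.239 TPM). CHD4 occupied *Tlr3* (3 peaks), *Tlr5* (7) and *Tlr11* (3) in WT GMPs and not *Tlr12*. The strongest of these peaks, 4.06 kb before the *Tlr3* start, had a fold of 46.7, more than any at the 10 genes, and 12.2 in Gfi1-/- GMPs.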

How the data were processed

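Expression came as 1 table in which the authors deposited the TPM of each gene in each library. They also deposited 1 peak list per ChIP-seq or ATAC-seq library with a fold enrichment over background, a linear ratio, and a −log10 q-value of each peak as the authors' peak caller gave them. The submitters' processing notes name Trimmomatic 0.36, BWA 0.7.17, MACS2 2.1.0 and kallisto 0.44.0 with the build mm10. The study's methods instead name Tophat and HTSeq for the RNA-seq reads, so that which tool made the TPM, and with it how reads shared by *Tlr1* and *Tlr6* were split, is not settled here. GFI1 and H3K4me3 peaks were not used, because some lie beyond the ends of GRCm38 chromosomes. No column of per-sample values was left unused.

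Genes that reached 1 TPM in 3 or more libraries were fitted together across the 9 libraries by limma 3.58.1 (R 4.3.3). The model took log2(TPM + 1), the cell type and no other term, with a trend in the variance and two-sided p-values adjusted by Benjamini and Hochberg (threshold 0.05). A count test does not suit TPM, and an exact permutation test of 3 libraries against 3 cannot go below p = 0.1. In a simulation of the contrast between matNeu cells and GMPs with 13061 genes, 38 of 100 genes changed by 1 on the log2 scale and 91 of 100 changed by 2 were recovered, with 7 false calls. Peaks were counted within 10 kb of a gene (GENCODE M21) and as shared from 1 bp of overlap, with Python 3.11.15, and read beside all protein-coding genes or all peaks. ChIP-seq results have no test. Transcripts and promoters came from GENCODE and RefSeq. Members, lists and tests were chosen with earlier results of these data known. All members were named, and from each pathway list the up to 3 called genes with the largest change between matNeu cells and GMPs. Of the sequences, the rule named the members with the strongest CHD4 peaks. *Cd14* was left out, although its strongest peak (25.3-fold) exceeded those of *Tlr8* (23.9) and *Tlr4* (21.4), which are shown. The sequences of *Tlr1*, *Tlr2* and *Tlr6* were added after the values were seen, as were the counts of the lists under other scalings. The closing section gives the alternatives tried.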

Additional observations from a re-analysis of the deposited data

How the results depend on the processing

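Of 639 values of a gene and contrast under an alternative, 604 kept their direction and side of the threshold, 22 lost and 12 gained a call, and 1 turned, *Cd14* in preNeu cells against GMPs with quantile normalization (0.24, adjusted p = 0.455). The changes of call in *Tlr1*, *Tlr6*, *Tlr7*, *Tlr8*, *Tlr4* and *Tlr13* stand in the report. A minimum log2 change of 1 left 3 members called between preNeu cells and GMPs (2 higher, 1 lower). Without each library in turn, 5 to 6 members were called for preNeu against GMP cells, 7 to 8 for matNeu against preNeu, 8 to 9 for matNeu against GMP and 6 to 7 for the difference of the steps. The shares of all genes called with the minimum change or without a library are not given here. These counts therefore show only how stable the calls of the members were. Adding the replicate block left the counts of members at 5, 8, 8 and 7, and of all genes at 7652, 8142, 10032 and 6105. Whether the numbers pair the libraries cannot be told. Correlations of same-number libraries ran from −0.04 to 0.12 over 9 pairs and 1 exceeded 0.1. Of 18 pairings of a library with a group, 10 were best with its own number. Weak correlations do not exclude shared animals or batches. Counts of higher and lower calls over all genes moved with the scaling, from 2976 and 7065 for matNeu against GMP cells to 4498 and 5453 (median-of-ratios) and 4876 and 5112 (quantile), from 2995 and 5202 to 3944 and 4414 and 3997 and 4216 for matNeu against preNeu, and from 1925 and 5781 to 3027 and 3679 and 3259 and 3557 for preNeu against GMP. The CHD4 peaks near members numbered 98 within 50 kb and 16 with the WT list cut to the length of the Gfi1-/- list. The H3K4me2 peaks of the 3 cell types together numbered 86 within 10 kb, 49 within 2 kb, 202 within 50 kb and 45 when a −log10 q-value of 5 had to be reached. In 100 bp windows 3 GFI1, 1 SPI1 and 3 C/EBP cores were found. The depth of every library is unknown.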
